A study of Gallus gallus with 5 samples.

Results

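Granulosa cell expression of 8 enzymes of androgen and estrogen metabolism was compared between hens fed ad libitum (FF) and feed-restricted hens (RF). The enzymes were taken by gene symbol as CYP17A1, HSD17B3, CYP19A1, HSD17B1, HSD17B4, SRD5A1, SRD5A2 and AKR1D1. Each symbol had 1 row in the file, so that 8 of 24356 listed genes are described here. RNA came from broiler breeder hens, a meat-type chicken, and each library held granulosa cells pooled from 5 to 6 follicles of 6–8 mm from a single hen. There were 2 FF hens, which ate freely from 28 weeks of age for 6 weeks, and 3 RF hens, which stayed on a restricted allowance over the same 6 weeks. The labels give no allele and no other agent for either group. The FF hens were picked for sequencing because they had an excess of preovulatory follicles and the RF hens because they had a usual number. Each diet was also fed in its own pen, so that diet, pen and follicle number cannot be told apart. A further FF library, which clustered apart, had been set aside by the authors and was not analysed here.

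Sex steroids are made in steps that are shared between layers of the avian follicle. Granulosa cells, which line the yolk-filled oocyte, are known mainly for progesterone, whereas the theca layers outside the basement membrane are known for androgens and estrogens. CYP17A1 turns progestins into androgens, HSD17B3 in mammals reduces androstenedione to testosterone, and CYP19A1 (aromatase) turns androgens into estrogens. HSD17B1 in mammals reduces estrone to estradiol, and HSD17B4 works in the opposite direction besides its main role in peroxisomal fatty acid oxidation. SRD5A1 and SRD5A2 make the more active dihydrotestosterone, and AKR1D1 reduces the same steroids in the other geometry, which inactivates them as androgens.

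Values are normalized counts, meaning reads per gene divided by a size factor of the library and rounded by the authors. They summed to 28891495 and 29491091 in FF granulosa cells and to between 25929234 and 27277087 in the RF libraries. The spacing of the low values gave an estimated 0.813 to 1.212 normalized counts per read, or about 21400000 to 33600000 reads in genes per library. Granulosa markers were present in all 5 libraries, with FSHR at 4591 and 5650 in FF hens and 3725 to 6380 in RF hens and FOXL2 at 15017 and 27392 in FF hens and 13657 to 24440 in RF hens. Of the 9 markers listed, KRT18 was the exception at 0 to 7. The markers were not all alike between the groups, since INHA, the inhibin alpha subunit, was higher in FF hens (36972 and 73862, against 2980 to 3440 in RF hens), and WT1 and AMH lay below the RF range in both FF hens without passing the adjusted test used here. WT1 is in the authors' published list of differentially expressed genes higher in RF hens, from the same libraries. RF replicate 1 exceeded the other libraries in 11 of 14 tested markers of theca and stroma, in some only narrowly. It was also the highest in 4 of 8 endothelial markers and in 2 of 5 tested smooth muscle markers.

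None of the 8 enzymes differed between FF and RF hens at an adjusted p of 0.05 in the test used here. The test was limma, FF minus RF, on normalized counts plus 1 after log2, with Benjamini-Hochberg adjustment over all 13305 genes with a mean of at least 10, and all 8 enzymes passed that filter. At this threshold 144 genes (1.08%) were called, 112 (0.842%) of them higher in FF hens and 32 (0.241%) lower, and 113 genes (0.849%) also passed a log2 fold change of 1 and a mean of 200 in at least one group. At an unadjusted p under 0.05 from limma, 2 of the 8 enzymes passed, AKR1D1 and CYP19A1, against 17.8% of all tested genes. Without the mean-variance trend limma called 0 of all 13305 tested genes, so its 0 of the 8 enzymes says nothing about them in particular. In that fit 2 of the 8 had an unadjusted p under 0.05, against 16.4% of all tested genes. The estimate was below 0 for 6 of the 8, against 49.0% of all genes. The median log2 fold change was −1.001 over the 8 enzymes and 0.0074 over all tested genes. SRD5A2, with an FF mean of 6.5, passed the filter only through its RF values, and it enters both that count and that median. Both FF libraries lay outside the RF range for CYP19A1, SRD5A1 and AKR1D1, each time below it. That is 3 of 8, where the groups did not overlap in 36.3% of all tested genes and FF lay below RF in 16.9%, so the share with separate groups was near that of all genes.

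**Figure D1:**
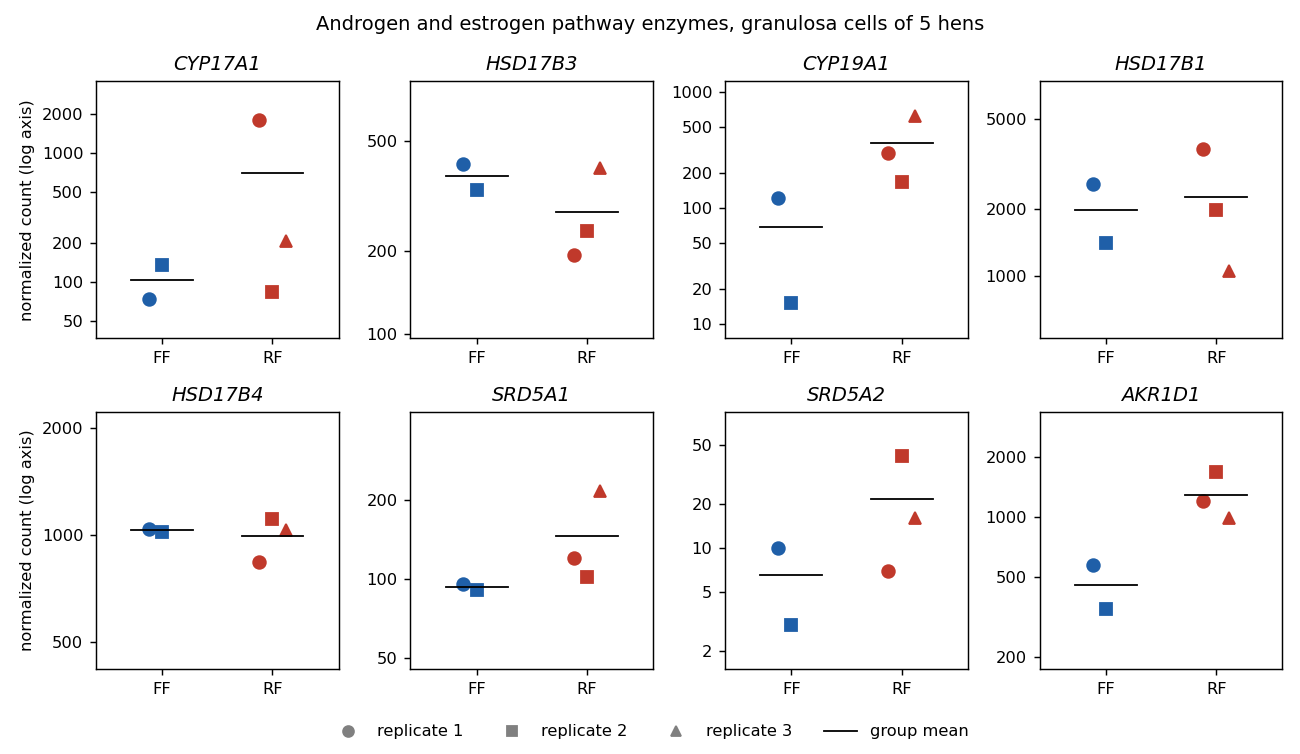
Normalized counts of the 8 enzymes on log axes, with FF left and RF right in each panel, 1 point per hen, the replicate number as the symbol and the group mean as a black line. AKR1D1, CYP19A1 and SRD5A1 had both FF points below all RF points, CYP17A1 had a single RF point at 1794, and the groups overlapped for the other enzymes.

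AKR1D1 (ENSGALG00000012834) had the smallest p of the 8. It had 574 and 346 normalized counts in FF replicates 1 and 2, against 1212, 1689 and 991 in RF replicates 1, 2 and 3. The higher FF library was thus below the lowest RF library, and RF replicate 2 was the highest of the 5. The means were 460 ± 161 for the FF diet (SD, n = 2), against 1297 ± 357 for the RF diet (SD, n = 3). The log2 fold change was −1.50 (SE 0.30, 95% interval −2.21 to −0.79, adjusted p = 0.0721 from limma), a 2.84-fold lower level in FF hens on this scale, and placed AKR1D1 at rank 308 of the 13305 tested genes by p. The adjusted p ran from 0.0548 with equal library totals to 0.249 without FF replicate 2, and the log2 fold change ran from −1.87 to −1.14 over the same alternatives. AKR1D1 is in the authors' published list of differentially expressed genes higher in RF hens, drawn from these libraries, so its direction was known beforehand. It thus passed the authors' DESeq2 test at a false discovery rate under 0.05, whereas limma on the normalized values did not call it.

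SRD5A1 (ENSGALG00000013063), the reductase that acts on the same substrates as AKR1D1 with the opposite stereochemistry, was at 96 and 91 normalized counts in FF granulosa cells, against 120, 102 and 216 in the RF libraries. FF lay below RF without overlap, although FF replicate 1 and RF replicate 2 were only 6 normalized counts apart. The 95% counting intervals of those libraries, 76.8 to 119 and 83.4 to 123, overlapped. The log2 fold change was −0.56 (SE 0.37, 95% interval −1.43 to 0.31, adjusted p = 0.475 from limma), and it was −0.24 without RF replicate 3, which carried the highest value. SRD5A2 (ENSGALG00000010625), the other reductase of this pair, was near the limit of detection, at 10 and 3 in FF granulosa cells and 7, 42 and 16 in the RF libraries. These values correspond to an estimated 9 and 3 reads in FF hens and 6, 44 and 20 reads in RF hens. The groups overlapped, and only RF replicate 2 stood well above the rest. SRD5A2 had a log2 fold change of −1.44 (95% interval −3.46 to 0.58, adjusted p = 0.426 from limma), and without RF replicate 2 its mean was under the filter, so it was not tested. SRD5A3, a relative that acts mainly on polyprenols in protein glycosylation, was at 1910 and 2429 in FF hens and 2043 to 2412 in RF hens.

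The balance of AKR1D1 over SRD5A1 within a library does not depend on the size factor. Its log2 value was 2.57 and 1.92 in FF granulosa cells, against 3.33, 4.04 and 2.19 in the RF libraries. RF replicate 3 fell between the FF libraries, so the groups overlapped. The mean difference, FF minus RF, was −0.94 and moved between −1.44 and −0.52 when single libraries were left out. These ratios are not per transcript length, so only their differences between libraries can be read.

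CYP19A1 (ENSGALG00000013294), aromatase, had the largest absolute log2 fold change of the 8 but also a wide spread. It was at 121 and 15 normalized counts in FF granulosa cells, against 295, 165 and 616 in the RF libraries. Both FF hens lay below all RF hens, and the range within each group was wide, with FF replicate 2 at an estimated 16 reads (15 normalized counts, exact Poisson 95% interval 8.36 to 23.7) and RF replicate 3 the highest. The means were 68.0 ± 75.0 for the FF diet (SD, n = 2), against 359 ± 232 for the RF diet (SD, n = 3). The log2 fold change of CYP19A1 was −2.82 (standard error 0.90, 95% interval −4.96 to −0.68, adjusted p = 0.184 from limma), a ratio of 7.06 between the groups on this scale. FF replicate 2 set much of its size, since the log2 fold change was −1.35 without it and −4.28 without FF replicate 1. The adjusted p was 0.126 to 0.442 over all alternatives.

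CYP17A1 (ENSGALG00000008121), which makes the androgens that aromatase uses, did not follow CYP19A1. It was at 73 and 134 normalized counts in FF granulosa cells, against 1794, 84 and 207 in the RF libraries. The groups overlapped, and RF replicate 1 held 8.67 times the value of the next RF library. Mean values were 104 ± 43.1 for the FF diet (SD, n = 2), against 695 ± 954 for the RF diet (SD, n = 3), with the RF mean set by that hen. CYP17A1 had a log2 fold change of −1.66 (standard error 1.17, 95% interval −4.44 to 1.12, adjusted p = 0.506 from limma) and of −0.41 without RF replicate 1 (adjusted p = 0.764 from limma).

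Most listed genes that mark theca and stroma were, like CYP17A1, highest in RF replicate 1, some of them only narrowly. Of 18 listed symbols 16 were in the file and 14 were tested, and 11 of these were highest in RF replicate 1. The share of all tested genes highest in that library is not given here. The lead was narrow for COL3A1 (1223, against 1095 in FF replicate 1) and PDGFRB (204, against 192 in RF replicate 3). It was also narrow for THY1 (76, against 56 in FF replicate 1). POSTN was highest in RF replicate 2, at 97. An adjusted p of 0.05 from limma was passed by 0 of the 14, against 1.08% of all tested genes. At an unadjusted p under 0.05 there were 3, against 17.8% of all tested genes. The median log2 fold change of the 14 was −1.50, against 0.0074 over all genes. COL6A1, COL6A3, GLI1, PDGFRA, POSTN and TCF21 had FF means of 6.5 or less and passed the filter only through their RF values. The 3 with an unadjusted p under 0.05 from limma, COL6A3, PDGFRA and POSTN, were among them. That count and that median thus lean on genes near the limit of detection in FF hens. COL1A1, an interstitial collagen, was at 39 and 16 in FF granulosa cells and 714, 75 and 56 in the RF libraries, and TCF21, a stromal transcription factor, was at 6 and 1 in FF hens and 133, 6 and 12 in RF hens. PDGFRA, a growth factor receptor of stromal cells, was listed at 0 in both FF libraries and at 56, 14 and 7 in the RF libraries. The summed level of the list was 3074 and 4934 in FF hens and 3697 to 6563 in RF hens, and COL1A2, its most abundant member, did not peak in RF replicate 1 (3267 and 2435 in FF hens, 2744, 2562 and 2080 in RF hens). The proteoglycan genes DCN and LUM, which mark stroma, were at 13 or fewer normalized counts in all libraries. In bulk RNA, fewer cells of a type and less RNA per cell cannot be told apart, and the part of theca cells in the CYP17A1 values was not tested. Some markers of other cells also peaked in RF replicate 1. They included the endothelial receptor KDR, at 5 and 8 in FF hens and 198, 21 and 32 in RF hens. The muscle filament gene DES was at 12 and 5 in FF hens and 156, 21 and 20 in RF hens. RF replicate 1 was the highest in only 4 of 8 endothelial and 2 of 5 tested smooth muscle markers. The endothelial gene PECAM1 was at 1456 and 2649 in FF hens, against 1471, 1381 and 1318 in RF hens. ACTA2 of smooth muscle was lowest in RF replicate 1, at 1533, and highest in FF replicate 2, at 4257. CYP19A1 did not share the peak of CYP17A1 in RF replicate 1, as its highest library was RF replicate 3, at 616, where COL1A1 was at 56. Among the 14 tested theca and stroma markers 1, PTCH1, was also highest in RF replicate 3, at 314. PTCH1 was at 171 and 131 in FF hens and at 171 and 172 in RF replicates 1 and 2. The part of theca cells in the CYP19A1 values was not tested.

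**Figure D2:**
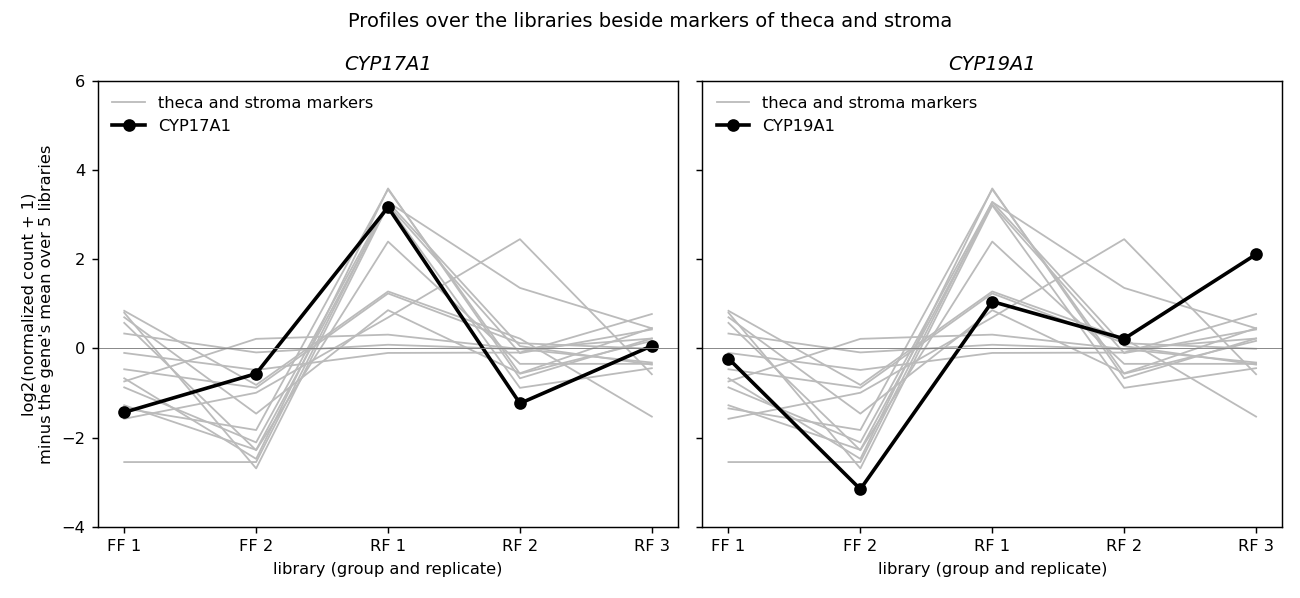
Log2(normalized count + 1) of CYP17A1 (left) and CYP19A1 (right) in black and of the 14 tested theca and stroma markers in grey, each centred on its mean over the 5 libraries, with the FF libraries left of the RF libraries; the lines only join the points of a gene. CYP17A1 and 11 of the 14 markers were highest in RF replicate 1, while CYP19A1 was highest in RF replicate 3 and lowest in FF replicate 2.

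The genes whose profile over the 5 libraries was most like that of CYP17A1, among 10402 other tested genes with a symbol, were CYP1B1, AQP1, FLI1, CMKLR1 and HTRA1. Likeness was the root mean square difference of centred log2 values, which was 0.31 for CYP1B1 and 0.54 for HTRA1, where CYP17A1 itself varied by 1.67 around its mean. CYP1B1, which hydroxylates estradiol in mammals, was at 2 and 6 in FF granulosa cells and 101, 4 and 6 in the RF libraries. For CYP19A1 the most alike were ANGPT4, CDHR4, ITGA11, TCEA3 and ADH6, and the match was looser, at 0.56 to 0.72 with a variation of 1.77. ANGPT4, an angiopoietin, was at 63 and 26 in FF hens and 297, 186 and 477 in RF hens, so it too was highest in RF replicate 3 and lowest in FF replicate 2. These likenesses are descriptions over 5 points that share libraries. Here and below, genes were picked for such likeness, so a shared highest library or order of libraries follows from the choice.

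HSD17B1 (ENSGALG00000027429) varied widely between hens of the same diet, with group means that differed by less than that spread. It had 2565 and 1399 normalized counts in FF granulosa cells, against 3711, 1976 and 1056 in the RF libraries. The FF values lay inside the RF range, and RF replicates 1 and 3 were 3.51-fold apart. The means were 1982 ± 824 for the FF diet (SD, n = 2), against 2248 ± 1348 for the RF diet (SD, n = 3), and the log2 fold change was −0.063 (SE 0.51, 95% interval −1.29 to 1.17, adjusted p = 0.969 from limma). The interval reaches past 1 on the log2 scale in both directions, and the sign turned without FF replicate 2 (0.37) or without RF replicate 1 (0.39). ANKRD39, PRICKLE1, MYOD1, ALPL and A4GNT had the profiles most like that of HSD17B1, at a root mean square difference of 0.13 to 0.17 with a variation of 0.64. ALPL, alkaline phosphatase, was at 469 and 313 in FF granulosa cells and 866, 408 and 255 in the RF libraries, the same order of libraries as HSD17B1.

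HSD17B4 (ENSGALG00000002187) was the steadiest enzyme of the 8. It was at 1041 and 1023 normalized counts in FF granulosa cells, against 837, 1113 and 1035 in the RF libraries, and the highest library was 1.33 times the lowest. The FF values fell within the RF range. The log2 fold change of HSD17B4 was 0.063 (standard error 0.17, 95% interval −0.34 to 0.46, adjusted p = 0.884 from limma), and it turned to −0.075 with equal library totals, which moved the median of all genes to −0.13, and to −0.057 without RF replicate 1. Its closest profiles were those of CANX, DIS3L, RPRD1A, NCOA1 and AIDA, at 0.020 to 0.039 with a variation of 0.14. The log2 ratio of HSD17B4 over HSD17B1 within a library was −1.30 and −0.45 in FF hens, against −2.15, −0.83 and −0.03 in RF hens. The groups overlapped, and the mean difference of 0.13, FF minus RF, ranged from −0.45 to 0.61 when single libraries were left out.

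HSD17B3 (ENSGALG00000045920) was the enzyme with the largest positive estimate. It was at 414 and 332 normalized counts in FF granulosa cells, against 193, 236 and 402 in the RF libraries. The groups overlapped because RF replicate 3 lay between the FF hens, while RF replicates 1 and 2 were below both. The means were 373 ± 58.0 for the FF diet (SD, n = 2), against 277 ± 110 for the RF diet (SD, n = 3), with a log2 fold change of 0.49 (standard error 0.33, 95% interval −0.30 to 1.29, adjusted p = 0.493 from limma). The value was 0.79 without RF replicate 3 and 0.27 without RF replicate 1. TLE4Z1, PGRMC1, PLCXD1, SLC16A1 and the microRNA gene listed as gga-mir-1661 had the closest profiles, at 0.084 to 0.12 with a variation of 0.43. PGRMC1, a membrane heme protein that binds cytochrome P450 enzymes, was at 9653 and 9244 in FF granulosa cells and 4594, 6128 and 10301 in the RF libraries.

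**Figure D3:**
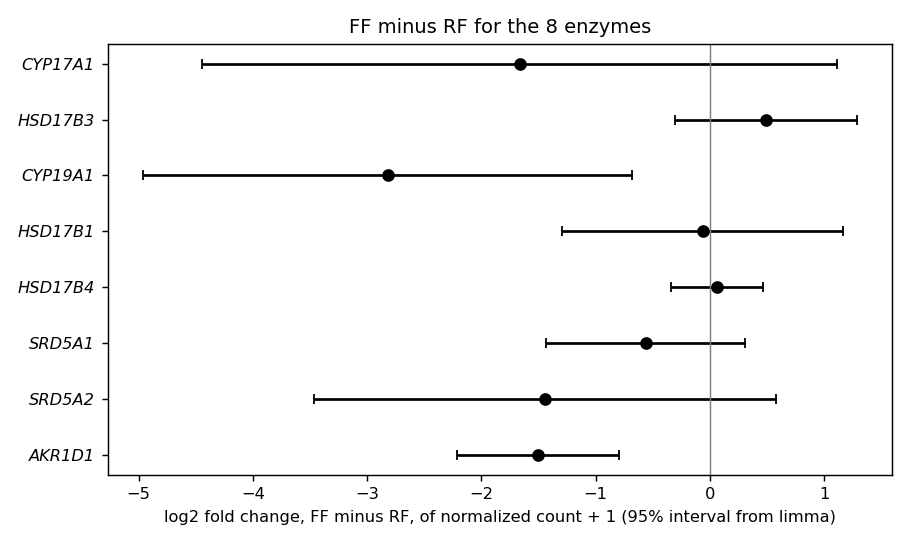
Log2 fold change, FF minus RF, of log2(normalized count + 1) for the 8 enzymes, with 95% intervals from limma over 2 FF and 3 RF hens. The intervals of AKR1D1 (−2.21 to −0.79) and CYP19A1 (−4.96 to −0.68) lay below 0 before adjustment for the number of genes tested, and those of the other 6 enzymes held 0.

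The enzymes differed widely in how much they varied between hens of the same diet. The residual SD within groups, on the log2 scale, was 1.88 for CYP17A1, 1.43 for CYP19A1 and 0.82 for HSD17B1. Tested genes of a similar level, within 2-fold of the mean of each enzyme, had median residual SDs of 0.22, 0.28 and 0.17 at those levels. CYP17A1 was thus 8.70 times as variable as the median gene of its level, CYP19A1 5.17 times and HSD17B1 4.80 times. Each lay above at least 98.7% of such genes. RF replicate 1, at 1794, raised the mean of CYP17A1 to 458. Its comparison genes thus lay above the level of its other libraries. At the lower level of SRD5A1, a mean of 125, the median residual SD was 0.34. AKR1D1, at 0.43 against 0.18, was above 91.2% of them. HSD17B4, at 0.17 against 0.18, was above 46.8%. SRD5A1 and HSD17B3 both stood at 0.46, above 69.1% and 82.7% of genes at their levels, and SRD5A2 at 1.16, above 88.0%. The highest library was RF replicate 1 for CYP17A1 and HSD17B1, RF replicate 2 for AKR1D1, SRD5A2 and HSD17B4, RF replicate 3 for CYP19A1 and SRD5A1, and FF replicate 1 for HSD17B3. FF replicate 2 was the lowest in 4 of the 8, namely CYP19A1, SRD5A1, SRD5A2 and AKR1D1. The highest value was thus spread over 4 of the 5 libraries.

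**Figure D4:**
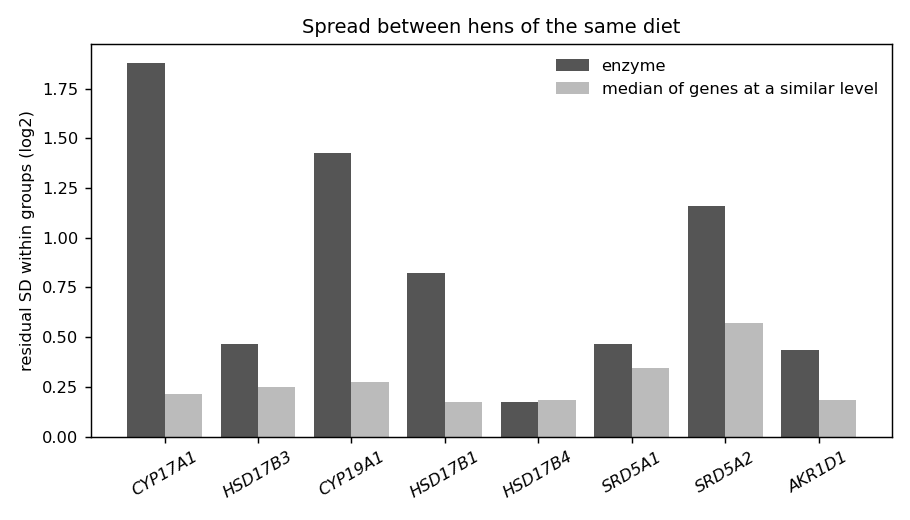
Residual SD within groups on the log2 scale for each enzyme (dark bars) beside the median of tested genes within 2-fold of its mean level (light bars), over 2 FF and 3 RF hens. CYP17A1 (1.88), CYP19A1 (1.43) and SRD5A2 (1.16) had the tallest dark bars, and HSD17B4 (0.17) was level with its light bar.

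For the reductases, the same measure of likeness was used. The genes most like AKR1D1 were SOD3, LRIG3, ARHGDIB, RAB25 and RNASE4, at 0.12 to 0.20 with a variation of 0.81. SOD3, extracellular superoxide dismutase, was at 33 and 17 in FF granulosa cells and 57, 95 and 58 in the RF libraries. For SRD5A1 they included KIAA1109, FAM49A, INTS12 and FBN2, all highest in RF replicate 3, at 0.079 to 0.093 with a variation of 0.45. FBN2, a fibrillin of elastic fibres, was at 6545 and 7293 in FF hens and 8866, 7975 and 14823 in RF hens. For SRD5A2 they were NWD2, IL18R1, CPN2, STC1 and CELF3, all highest in RF replicate 2, at 0.24 to 0.49 with a variation of 1.14. A shared highest library follows from how these genes were picked.

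An adjusted p of 0.05 from limma was passed by 3 of 46 other tested pathway genes, all higher in FF hens, and missed by 43, with 0 lower. Over all tested genes 0.842% passed as higher in FF hens and 0.241% as lower. At an unadjusted p under 0.05, 10 of the 46 were higher and 3 lower, against 17.8% of all tested genes in either direction. The 3 were STAR and CYP11A1, which bring cholesterol to the mitochondrion and cleave its side chain, and NR5A1, a nuclear receptor that activates steroidogenic promoters. They had log2 fold changes of 3.41, 3.72 and 1.12. All of them are named by the study from these libraries, so their direction is not independent evidence. Fits without either FF library rest on a lone FF hen and say nothing about these genes in particular. The median log2 fold change of the 46 was 0.068.

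STAR and CYP11A1 stand at the start of the steps that supply the 8 enzymes. HSD3B1, which makes progesterone from pregnenolone, was at 8599 and 13318 normalized counts in FF granulosa cells, against 5041, 7673 and 5308 in the RF libraries, with no overlap (log2 fold change 0.86 with a standard error of 0.25, adjusted p = 0.159 from limma). CYP21A1, listed as CYP21, which diverts progesterone to corticoids, was at 547 and 273 in FF hens and 246, 345 and 286 in RF hens, with overlap. FDX1 and FDXR, which pass electrons to mitochondrial P450 enzymes such as CYP11A1, had log2 fold changes of 0.59 and 0.47 without overlap (adjusted p = 0.0962 and 0.164 from limma). POR and CYB5A, the donors that serve CYP17A1, had 0.25 and 0.064 with overlapping groups. POR, which also serves CYP19A1, was at 5993 and 5201 in FF hens, against 5489, 3690 and 5158 in RF hens.

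Other members of the HSD17B family mostly had small estimates. HSD17B2, which in mammals oxidises estradiol and testosterone to weaker steroids, was the exception, at 86 and 101 normalized counts in FF granulosa cells, against 284, 184 and 247 in the RF libraries. Both FF hens lay well below the RF hens, and the log2 fold change was −1.32 (SE 0.27, 95% interval −1.97 to −0.68, adjusted p = 0.0758 from limma), beside −1.50 for AKR1D1. HSD17B12, an enzyme of fatty acid elongation, was at 2886 and 2964 in FF hens and 2743 to 2897 in RF hens (log2 fold change 0.057). HSD17B7 of cholesterol synthesis, mitochondrial HSD17B10 and DHRS11 had log2 fold changes of −0.28, 0.21 and 0.037. Of the 5 tested genes, 0 passed an adjusted p of 0.05 from limma, and 1, HSD17B2, passed an unadjusted p of 0.05. Over all tested genes the shares were 1.08% and 17.8%.

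Among 12 tested genes of conjugation and further metabolism of sex steroids, 0 passed an adjusted p of 0.05 from limma and 1, CYP7B1, had an unadjusted p under 0.05. Of all tested genes 1.08% and 17.8% did so. CYP7B1, a hydroxylase of oxysterols and of some androgens, was at 23 and 17 normalized counts in FF hens, against 47, 49 and 46 in RF hens (log2 fold change −1.22, adjusted p = 0.156). CYP3A4 was at 722 and 433 in FF hens and 1163, 668 and 773 in RF hens, with overlap. STS, steroid sulfatase, was at 48 and 79 in FF hens and 57, 126 and 112 in RF hens. The median log2 fold change of these 12 was −0.10. CYP1A1, CYP1A2, CYP3A5 and AKR1B10 (listed as AKR1B10L2) were at 8 or fewer normalized counts in all libraries and were not tested.

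Of the receptors that read out these steroids, the nuclear estrogen receptors had few counts, with ESR2 at 80 and 95 in FF hens, against 76, 55 and 70 in RF hens, and ESR1 at 19 and 5 in FF hens, against 4, 7 and 12 in RF hens. GPER1, a membrane estrogen receptor, was at 5 and 5 in FF hens and 21, 22 and 11 in RF hens (log2 fold change −1.60, adjusted p = 0.202). PGR, the progesterone receptor, was at 17 and 30 in FF hens and 39, 28 and 43 in RF hens. Of the 4 tested receptors 0 passed the adjusted test from limma, against 1.08% of all tested genes. An unadjusted p under 0.05 was found for 2, GPER1 among them, against 17.8% of all tested genes. GPER1 was near the limit of detection, and its mean of 12.8 over the 5 libraries passed the filter only through its RF values.

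Of 12 tested regulators, 1, NR5A1, was higher in FF hens and 0 were lower, against 0.842% and 0.241% of all tested genes. FOXL2, a forkhead factor known to activate aromatase, was at 27392 and 15017 normalized counts in FF hens, against 23861, 24440 and 13657 in RF hens, with a log2 fold change of 0.022. FSHR, the receptor of the hormone that induces aromatase in mammalian granulosa cells, had 0.11. GATA6, at 6314 and 5014 in FF hens and 3834, 4557 and 3143 in RF hens, had 0.57 without overlap (adjusted p = 0.202 from limma). NR5A2, a relative of NR5A1, was at 2981 and 81 in FF granulosa cells and 28, 24 and 3 in the RF libraries, so that its estimate of 5.12 (standard error 1.54, adjusted p = 0.169 from limma) rested mainly on FF replicate 1. The authors' DESeq2 test of these libraries did call NR5A2, which is in their published list of genes higher in FF hens. NR2F2, an orphan receptor that also counts among the theca and stroma markers, was at 86 and 11 in FF hens and 307, 45 and 45 in RF hens.

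**Figure D5:**
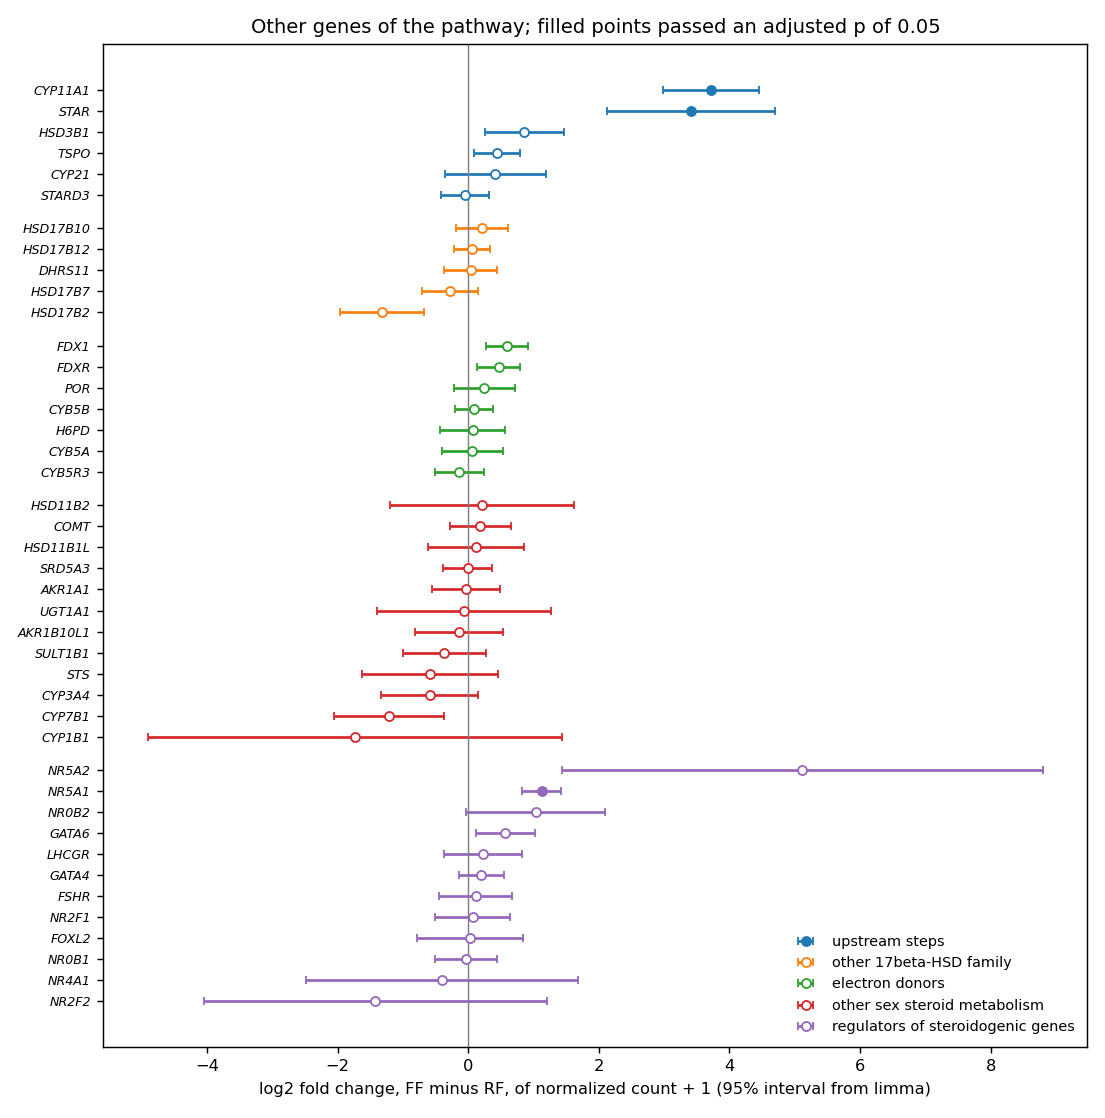
Log2 fold change, FF minus RF, with 95% intervals from limma for the other tested genes of the pathway except the sex steroid receptors, grouped by list in colour, with filled points for those past an adjusted p of 0.05 and open points for the rest. STAR, CYP11A1 and NR5A1 were the filled points. Among the open points, which did not pass after adjustment, the intervals of HSD17B2 (−1.97 to −0.68) and CYP7B1 (−2.06 to −0.37) lay below 0. Those of TSPO, HSD3B1, FDX1, FDXR, GATA6 and NR5A2 lay above 0.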

How the data were processed

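The authors trimmed reads with Trim Galore, aligned them with STAR to galGal6 and scaled gene counts by DESeq2 size factors. For tool versions, the read counter and its strand setting, nothing is stated: not given in the sources used here. Deposited values, counts divided by size factors and rounded, were treated as a score and not as raw reads. In FF replicate 2 and RF replicates 2 and 3 the estimated spacing of values was below 1 normalized count per read (0.914, 0.961 and 0.813), so whole reads could not be recovered and no count model was run. For the log2 scale 1 was added, and limma 3.58.1 in R 4.3.3 was used with a mean-variance trend over genes with a mean of at least 10, two-sided, with 3 residual and 3.71 prior degrees of freedom. The test and the spacing estimate were tested on simulated data. In the simulation of the test, all genes shared a single dispersion. Its outcome does not carry over to enzymes that spread widely between hens, such as CYP17A1. Counting intervals cover counting error only.

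The 8 genes and all lists were chosen with earlier results of these data known. Lists held 132 entries, of which 112 were matched, 4 of them through synonyms in RefSeq (GRCg7b), which was used for names only. Named genes are the 8 enzymes, pathway list members, the 5 closest profiles per enzyme among genes with symbols, and marker genes. Some genes named by this rule are not reported here. Alternatives changed the pseudocount, the filter, the scaling, the variance model and a replicate block, and left out each library. Genomic positions and the qPCR were not used here. Python 3.11.15 and matplotlib 3.10.9 drew the figures.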

Additional observations from a re-analysis of the deposited data

How the results depend on the processing

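With 2 and 3 hens per group, single libraries weigh heavily, and a p above 0.05 does not show that an enzyme was alike in the groups. Of the 8 enzymes 0 passed in any alternative. HSD17B1 turned to 0.37 without FF replicate 2 and 0.39 without RF replicate 1 (−0.50 was reached without FF replicate 1, and −0.52 without RF replicate 3), and HSD17B4 to −0.075 with equal totals and −0.057 without RF replicate 1 (0.15 without RF replicate 2). The log2 ratio of HSD17B4 over HSD17B1 (0.13, with no test) turned to −0.30 without FF replicate 2 and −0.45 without RF replicate 1. SRD5A2 had no value at a minimum mean of 50 or without RF replicate 2. Over all genes, 93 were called higher in FF hens and 20 lower at the fold and level thresholds, 73 and 56 with equal totals, 87 and 32 with equal upper quartiles, 13 and 1 with no filter on low values, and 0 and 0 without the variance trend (2188 at an unadjusted p under 0.05). The 144 genes past the adjusted p became 14 without the filter and 0 without the trend. Of the other pathway genes 3 passed as higher, 1 without the filter and 0 without the trend. Leaving out single libraries gave 1 to 92 higher, 0 to 22 lower, 1 to 128 past the adjusted p and 0 to 2 higher pathway genes, the lowest counts without either FF library, where the lone FF hen is assumed to vary like the RF hens. The causes were not tested. Replicate numbers 1 and 2 occur in both diets, but nothing ties such hens together, and the deviations of the 2 same-numbered pairs correlated at 0.11 and −0.073 across genes. A replicate block left 1 residual degree of freedom and called 53 and 8 genes, with 62 past the adjusted p, 0 of them among the 8 enzymes.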

Other observations

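Some balances between the enzymes were computed after their values had been seen and are given as descriptions. The log2 ratio of HSD17B1 over CYP19A1 within a library was 4.39 and 6.45 in FF hens, against 3.65, 3.57 and 0.78 in RF hens, without overlap. The ratio was highest in FF replicate 2, where CYP19A1 was lowest at 15. It was lowest in RF replicate 3, where CYP19A1 was highest at 616 and HSD17B1 was lowest at 1056. The log2 ratio of CYP17A1 over the summed theca and stroma markers was −6.06 and −4.51 in FF hens, against −1.87, −5.44 and −4.17 in RF hens, with RF replicate 1 the highest. COL1A2 was 2744 of the marker sum of 6563 in RF replicate 1. It was 2562 of 3697 in RF replicate 2 and 2080 of 3750 in RF replicate 3. In FF replicates 1 and 2 it was 3267 of 4934 and 2435 of 3074. COL1A2 was thus the largest part of each sum, and CYP17A1 was not compared with the other markers alone. For CYP19A1 the log2 ratio over the same sum was −5.34 and −7.59 in FF hens, against −4.47, −4.48 and −2.60 in RF hens, without overlap. Because COL1A2 weighs most in that sum, this ratio does not correct CYP19A1 for theca or stroma content.

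The oocyte markers BMP15, GDF9, DAZL and ZAR1 were also highest in RF replicate 1 in all 5 tested rows, since ZAR1 had a pair of rows. GDF9, an oocyte growth factor, was at 175 and 146 normalized counts in FF hens, against 359, 274 and 258 in RF hens. Of 4 tested red blood cell markers 1, ALAS2 of erythroid heme synthesis, was higher in FF hens by limma (adjusted p = 0.0223), against 0.842% of all tested genes. ALAS2 was at 3369 and 3318 normalized counts in FF hens, against 1528, 1230 and 1243 in RF hens. It was far above the listed globins in every library, and whether it stands for red blood cells here was not tested. HBA1, a globin that did not pass (adjusted p = 0.0737 from limma), was at 145 and 327 in FF hens, against 41, 27 and 60 in RF hens. It is in the authors' published list of differentially expressed genes higher in FF hens. The part of these cells in the enzyme values was not tested.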
